A study of Caenorhabditis briggsae with 6 samples.

Results

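The genes described here are 37 Caenorhabditis briggsae genes for proteins of the mitochondrial ribosome, 18 of the large subunit (symbols Cbr-mrpl-) and 19 of the small subunit (symbols Cbr-mrps-), out of 23169 genes in the count table. Members were the genes with such a symbol that the study's overlap tables list as changed in Cbr-htz-1(gu167) or Cbr-spr-4(gu163), mutants of other C. briggsae genes. All 37 came from lists of genes lower in Cbr-spr-4(gu163), and 0 from a list that names Cbr-htz-1(gu167). They were thus chosen for a decrease in another mutant and cover part of the mitochondrial ribosome: the RefSeq gene table of assembly CB4 gives such a symbol to 62 genes.

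The libraries compared Cbr-ivph-3(sy5216) with wild type. The mutant group was strain PS9217, which carries sy5216, a base change that puts a premature stop codon into Cbr-ivph-3, a gene of the LIN-15B-domain family. The wild-type group was strain AF16. Each group had 3 libraries from whole hermaphrodites at the L3 larval stage, synchronized by bleaching, grown at 20 °C on Escherichia coli OP50 and collected when vulval precursor cells began to divide. The labels call the 3 preparations of each genotype independent biological replicates. Each genotype was 1 strain, so other differences between the strains cannot be told apart from the mutation. Because RNA came from whole animals, fewer cells of a type and less RNA per cell cannot be told apart.

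Mitochondria keep a small genome whose protein products are core subunits of the respiratory chain, and a ribosome of their own translates those few messages. The ribosomal RNAs are encoded in the mitochondrial genome, while the ribosomal proteins are encoded in the nucleus, made in the cytosol and imported. The small subunit binds and decodes the mRNA, and the large subunit joins amino acids and holds the tunnel through which the new protein leaves. In Caenorhabditis elegans, knockdown of mitochondrial ribosomal protein genes such as mrps-5 is known to slow mitochondrial translation, to induce mitochondrial chaperones and to lengthen life.

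Library totals were 22817581 to 30865944 counts in the mutant and 24625819 to 25760385 in wild type. Levels are given in CPM, edgeR's counts scaled to a common library size after TMM, a factor that sets most genes level between libraries. Cbr-ivph-3 was at 20.9 to 21.0 CPM in the 3 mutant libraries and at 33.01 to 36.5 CPM in wild type (log2 fold change -0.72, standard error, SE, 0.11, adjusted p = 0.00565, edgeR's quasi-likelihood test). With library totals its log2 fold change was -0.41 (edgeR adjusted p = 0.0577), short of the threshold. The level of a transcript with a premature stop codon is a weak check of the labels. All 37 members passed the filter on low counts, with 51 to 3967 counts in single libraries.

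Fewer transcripts of many mitochondrial ribosomal protein genes, of both subunits, were found in the mutant, and no member passed the test as higher. In edgeR's quasi-likelihood test, with p-values adjusted over all 14241 tested genes and a threshold of 0.05, 16 of the 37 members (43.2%) fell and 0 rose. The background was 9.8% of all tested genes called lower and 11.7% called higher. At an unadjusted p under 0.05 there were 22 members lower and 1 higher, against 15.8% and 19.8% of all tested genes, and the other tools also called 0 members higher. With limma-voom 16 members fell, against 10.4% of all tested genes called lower and 10.8% higher, and with DESeq2 19 fell, against 12.1% lower and 11.8% higher. At an adjusted p under 0.01 in edgeR 10 members fell, against 3.73% of all tested genes. The median log2 fold change (mutant over wild type) came to -0.46 over the members and 0.06 over all tested genes. It was negative for 33 of 37 members (24 with library totals), against 45.7% of all tested genes. The members that fell were at 40.9% to 74.4% of their wild-type level.

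Scaling changed how many members were called. With library totals in place of TMM, the median of all tested genes shifted to 0.37 and that of the members to -0.13. The calls were then 7 lower and 1 higher, against a background of 4.54% lower and 23.2% higher. The gap between the members and all tested genes was -0.50 with library totals and -0.52 with TMM.

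On the TMM scale, all 3 mutant libraries lay below all 3 wild-type libraries in 28 of 37 members, with no overlap between genotypes. The same held for 20.1% of all tested genes. Of the 28 members, 13 were of the large subunit and 15 of the small. The opposite pattern occurred in 1 member, Cbr-mrpl-21, against 22.2% of all tested genes. These counts depend on the scaling and were not taken with library totals. For Cbr-mrpl-24, 1 of the 28, mutant replicate 2 had 1790 counts of 22817581 in total. Wild-type replicate 1 had 1678 counts of 24625819.

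**Figure D1:**
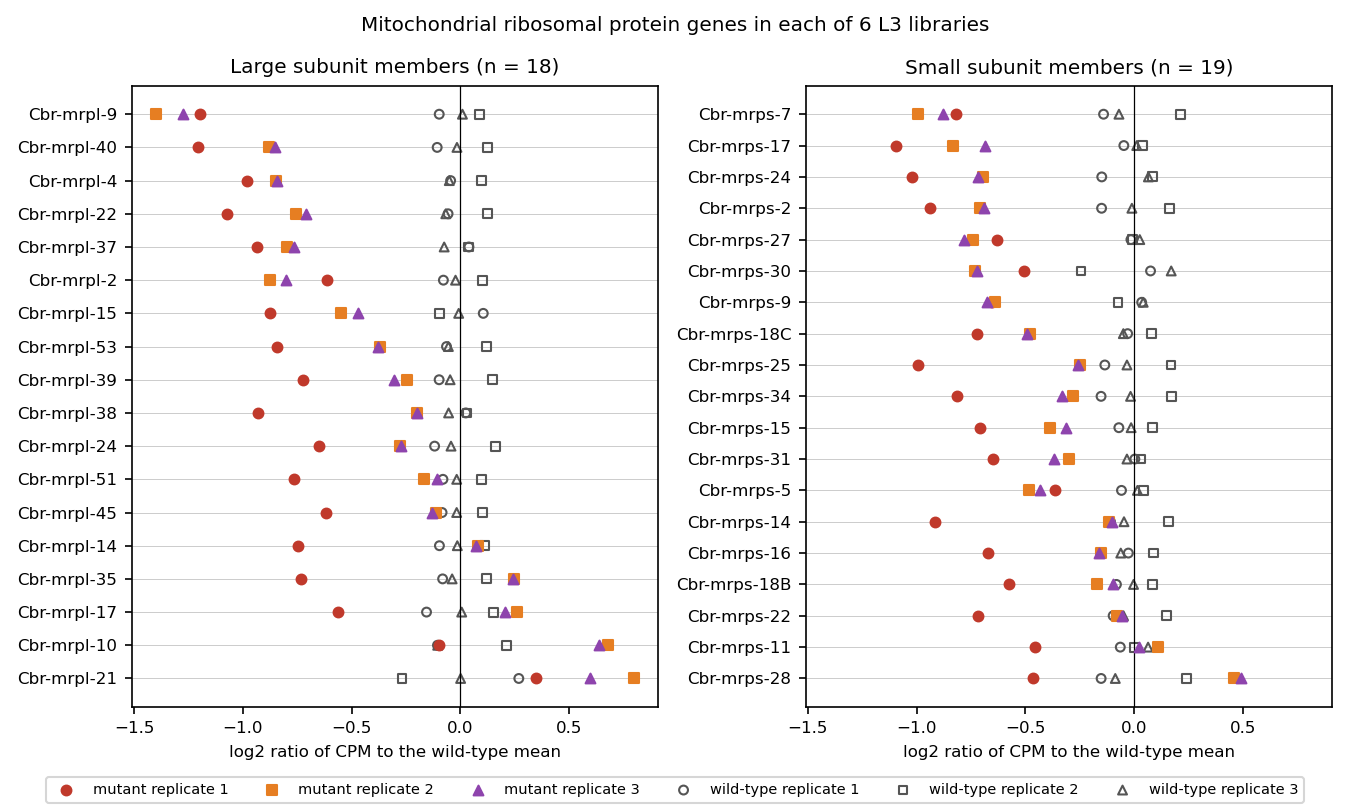
Each row is 1 gene and each point 1 library; the x axis is the log2 ratio of its CPM to the mean of the 3 wild-type libraries, for 18 large subunit genes (left) and 19 small subunit genes (right), ordered by log2 fold change. Filled points are mutant replicates and open points wild-type replicates; mutant replicate 1 lies furthest left in 30 of 37 rows if only the mutant points are compared.

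Large subunit genes fell in 7 of 18 cases (38.9%), against 9.8% of all tested genes, with a median log2 fold change of -0.41. Their fold changes ran from -1.29 to 0.59. The 7 that fell were Cbr-mrpl-2, Cbr-mrpl-4, Cbr-mrpl-9, Cbr-mrpl-15, Cbr-mrpl-22, Cbr-mrpl-37 and Cbr-mrpl-40.

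Cbr-mrpl-9, a counterpart of a bacterial large subunit protein, had the largest decrease among the members. Its level was 44.0, 38.2 and 41.7 CPM in mutant replicates 1, 2 and 3, against 94.3, 107 and 102 CPM in wild-type replicates 1, 2 and 3. The groups did not overlap, with means of 41.3 ± 2.91 CPM in the mutant and 101 ± 6.54 CPM in wild type (SD, n = 3 each). The log2 fold change was -1.29 (SE 0.12, adjusted p = 0.00135, edgeR's quasi-likelihood test).

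Cbr-mrpl-4 is the counterpart of a protein that in bacteria lines the exit tunnel of the large subunit. It was at 46.8, 51.3 and 51.3 CPM in the mutant, against 89.4, 98.7 and 89.1 CPM in wild type. The log2 fold change was -0.89 (SE 0.12, edgeR adjusted p = 0.00375), with no overlap between groups. Cbr-mrpl-22, named after its values were seen and whose bacterial counterpart also lines the exit tunnel, fell as well, with a log2 fold change of -0.84 (SE 0.14).

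Cbr-mrpl-2, counterpart of a protein close to the site of peptide bond formation, was at 42.2, 35.3 and 37.1 CPM in the mutant and 61.3, 69.4 and 63.7 CPM in wild type. It fell with a log2 fold change of -0.76 (SE 0.13, edgeR adjusted p = 0.0082). Among all members it had the highest mutant replicate 1 relative to mutant replicates 2 and 3, by 0.22 on the log2 scale.

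Cbr-mrpl-37 and Cbr-mrpl-40 belong to the proteins that the human mitochondrial ribosome has and bacterial ribosomes lack. Cbr-mrpl-37 was at 49.9, 54.8 and 56.2 CPM in the mutant, against 98.0, 97.8 and 90.5 CPM in wild type (log2 fold change -0.83, SE 0.12, edgeR adjusted p = 0.00472). Cbr-mrpl-40 was at 37.0, 46.4 and 47.2 CPM in the mutant, against 79.3, 93.0 and 84.4 CPM in wild type (log2 fold change -0.97, SE 0.15, edgeR adjusted p = 0.00567). In both genes every mutant library was below every wild-type library, and mutant replicate 1 was the lowest.

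At the other end, Cbr-mrpl-35 and Cbr-mrpl-17 had the largest p in this subunit. Cbr-mrpl-35 was at 22.8, 45.1 and 45.0 CPM in the mutant, against 35.9, 41.4 and 37.0 CPM in wild type. Mutant replicate 1 lay below every wild-type library and mutant replicates 2 and 3 above them, which left a log2 fold change of -0.02 (SE 0.27, edgeR adjusted p = 0.971). Its mutant replicate 1 was 0.98 lower on the log2 scale than the mean of the other mutant replicates, the widest such gap among the members.

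Cbr-mrpl-17 showed the same arrangement, with 30.2, 53.5 and 51.5 CPM in the mutant and 40.1, 49.6 and 44.8 CPM in wild type (log2 fold change 0.01, SE 0.23, edgeR adjusted p = 0.985). Its locus, CBG04173, overlaps the gene model CBG04174 in the RefSeq table. The library kit as named does not mark strand, while reads were counted with a reverse-stranded setting. Which of these holds for the libraries was not settled, so reads of the overlapping models may not be told apart.

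Cbr-mrpl-10 and Cbr-mrpl-21, named after their values were seen, had the highest fold changes of the members and did not pass the test. Cbr-mrpl-10, whose bacterial counterpart forms the base of the stalk that recruits translation factors, was at 56.8, 97.7 and 94.9 CPM in the mutant, against 56.6, 70.5 and 56.7 CPM in wild type. Mutant replicates 2 and 3 were above every wild-type library, while mutant replicate 1 was within their range (log2 fold change 0.44, SE 0.23, edgeR adjusted p = 0.225).

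Cbr-mrpl-21 had far fewer counts than the other members, 51 to 150 in single libraries. It was at 3.53, 4.85 and 4.20 CPM in the mutant, against 3.34, 2.28 and 2.76 CPM in wild type (log2 fold change 0.59, SE 0.23, edgeR adjusted p = 0.117). The RefSeq table names its locus, CBG21249, Cbr-zhit-2, so whether it encodes a mitochondrial ribosomal protein is uncertain. Without it, 16 of 36 members fell and the median log2 fold change was -0.46.

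Small subunit genes fell in 9 of 19 cases (47.4%), against 9.8% of all tested genes. Their median log2 fold change was -0.46, with a range of -0.90 to 0.21. The 9 that fell were Cbr-mrps-2, Cbr-mrps-5, Cbr-mrps-7, Cbr-mrps-9, Cbr-mrps-17, Cbr-mrps-18C, Cbr-mrps-24, Cbr-mrps-27 and Cbr-mrps-30. The subunits were not tested against each other, since their genes share the same 6 libraries and are not replicates.

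Cbr-mrps-7, whose bacterial counterpart organizes the head of the small subunit, had the largest decrease of this subunit. It was at 30.7, 27.2 and 29.5 CPM in the mutant, against 49.2, 62.8 and 51.7 CPM in wild type. The means were 29.1 ± 1.79 CPM in the mutant and 54.6 ± 7.27 CPM in wild type (SD, n = 3 each), with a log2 fold change of -0.90 (SE 0.14, edgeR adjusted p = 0.00621).

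Cbr-mrps-27 encodes the counterpart of a human mitochondria-specific protein with RNA-binding repeats. Its level was 73.2, 67.9 and 65.9 CPM in the mutant, against 112, 113 and 115 CPM in wild type. The means were 69.0 ± 3.79 CPM in the mutant and 113 ± 1.74 CPM in wild type (SD, n = 3 each), and the log2 fold change was -0.72 (SE 0.11, edgeR adjusted p = 0.00637).

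Cbr-mrps-17, whose bacterial counterpart binds ribosomal RNA early in assembly, was at 13.2, 15.8 and 17.6 CPM in the mutant, against 27.4, 29.0 and 28.5 CPM in wild type (log2 fold change -0.86, SE 0.14, edgeR adjusted p = 0.00756). Cbr-mrps-9, whose bacterial counterpart reaches towards the tRNA in the peptidyl site, was at 53.4, 53.9 and 52.6 CPM in the mutant, against 86.0, 79.8 and 86.4 CPM in wild type (log2 fold change -0.66, SE 0.11, edgeR adjusted p = 0.00806). Cbr-mrps-9 was the 1 member in which mutant replicate 1 was neither the lowest nor the highest mutant library.

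Cbr-mrps-28 and Cbr-mrps-11 had the largest p among small subunit genes. Cbr-mrps-28 was at 32.5, 61.7 and 63.0 CPM in the mutant, against 40.4, 53.0 and 42.3 CPM in wild type (log2 fold change 0.21, SE 0.27, edgeR adjusted p = 0.618). Cbr-mrps-11, whose bacterial counterpart lies on the platform of the small subunit, was at 49.4, 72.9 and 68.7 CPM in the mutant, against 64.7, 67.7 and 70.7 CPM in wild type (log2 fold change -0.09, SE 0.17, edgeR adjusted p = 0.749). In both genes mutant replicate 1 was below the wild-type range and mutant replicate 2 above it.

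**Figure D2:**
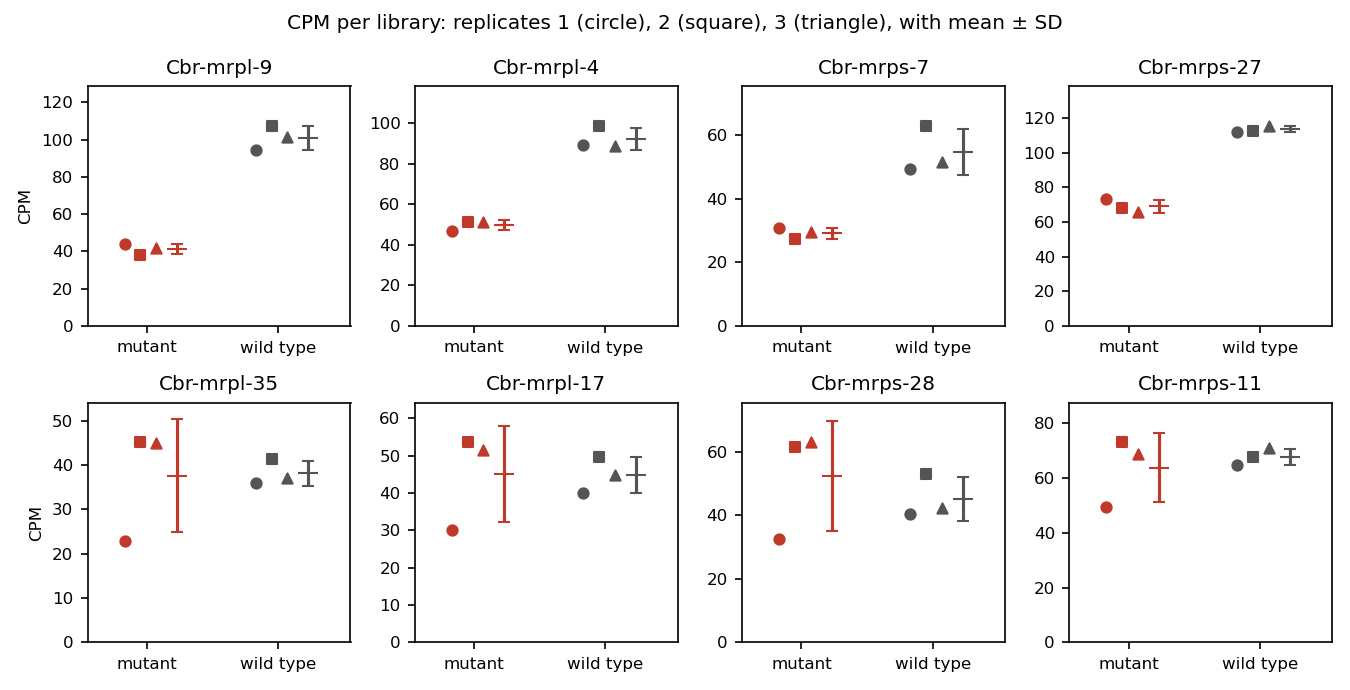
CPM in each library for 8 members, mutant left and wild type right in each panel, with the mean ± SD beside the points (n = 3 each) and y axes from 0. In the upper panels the genotypes do not overlap; in the lower panels, the members with the largest p, mutant replicate 1 (circle) lies below mutant replicates 2 and 3.

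By role, the members fell into proteins with a bacterial counterpart and proteins that human mitochondria have added, a grouping made after the values were seen and assigned from the human ribosome. Of the large subunit genes, 5 of 11 with a bacterial counterpart and 2 of 7 mitochondria-specific ones fell, against 9.8% of all tested genes. Of the small subunit genes, 7 of 13 with a bacterial counterpart and 2 of 6 mitochondria-specific ones fell, against the same 9.8%. The median log2 fold changes of these 4 groups were -0.39, -0.42, -0.46 and -0.47. The 4 members with a fold change above 0, Cbr-mrpl-10, Cbr-mrpl-17, Cbr-mrpl-21 and Cbr-mrps-28, were all grouped as having a bacterial counterpart. That of Cbr-mrpl-17, 0.01, was below 0 with DESeq2, its size factors, limma-voom, no filter and a replicate block. Since RefSeq names the locus of Cbr-mrpl-21 Cbr-zhit-2, its place in this group is uncertain. All 13 mitochondria-specific members had negative fold changes, from -0.97 to -0.26, against 45.7% of all tested genes. With library totals, however, 10 of the 13 were negative.

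The human counterpart of Cbr-mrps-30 sits in the large subunit despite its name. With Cbr-mrps-30 moved there, a choice made after the values were seen, 8 of 19 large and 8 of 18 small subunit genes fell. The share of all tested genes called lower was 9.8%.

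**Figure D3:**
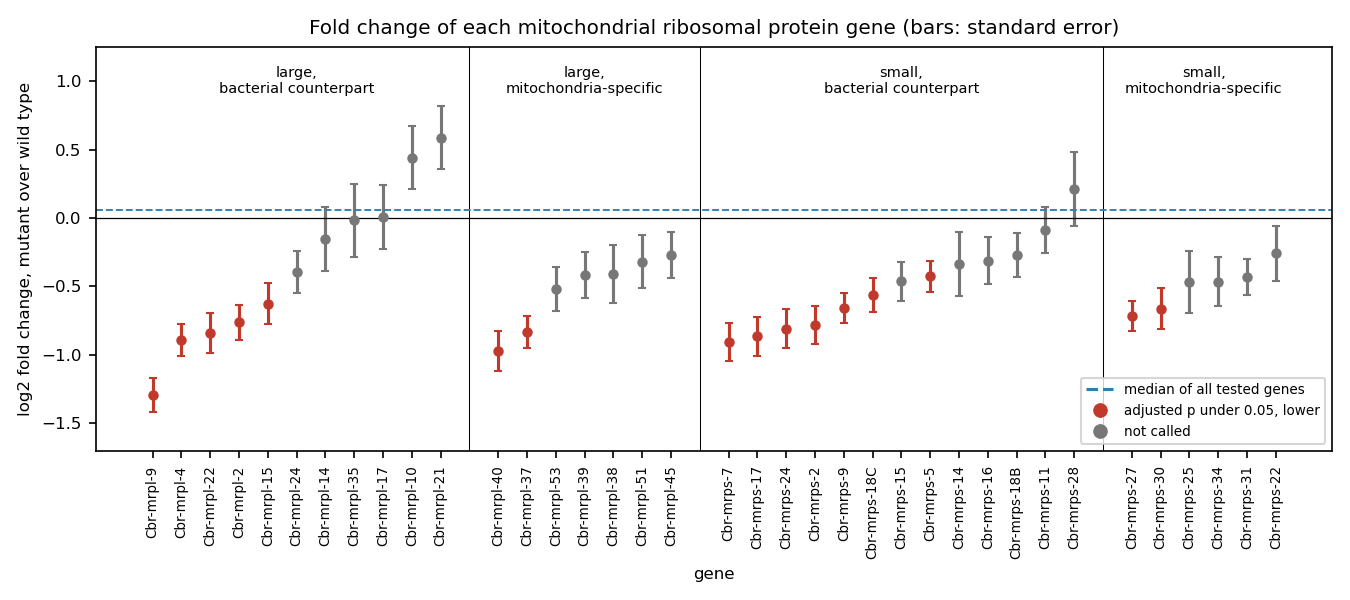
Log2 fold change (y axis, mutant over wild type) with its standard error for each of the 37 genes, grouped by subunit and by whether the human counterpart has a bacterial relative. Red points are the 16 genes lower at an adjusted p under 0.05, grey points the 21 not called, and the dashed line is the median of all tested genes, 0.06.

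The 3 mutant libraries did not share the decrease equally. The median log2 ratio of the members to the wild-type mean was -0.73 in mutant replicate 1, -0.30 in mutant replicate 2 and -0.33 in mutant replicate 3. Over all tested genes these medians were 0.01, 0.05 and 0.05. For the large subunit they were -0.76, -0.26 and -0.29, and for the small subunit -0.71, -0.39 and -0.37. With library totals the members' medians were -0.54, 0.09 and 0.03, so those of mutant replicates 2 and 3 turned positive, while the medians of all tested genes were 0.19, 0.44 and 0.41.

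The next counts, by gene, use the TMM scale. Mutant replicate 1 was below all 3 wild-type libraries in 35 of 37 members, against 39.9% of all tested genes. The count was 29 in mutant replicate 2, against 37.7%, and 28 in mutant replicate 3, against 37.6%. Mutant replicate 1 was the lowest of the mutant libraries in 30 members, 16 large and 14 small, against 49.6% of all tested genes. It was the highest in 6, namely Cbr-mrpl-2, Cbr-mrpl-9, Cbr-mrps-5, Cbr-mrps-7, Cbr-mrps-27 and Cbr-mrps-30, against 6313 of all 14241 tested genes. Each of these 6 fell in the test.

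Mutant replicates 2 and 3 were close to each other, with a median absolute log2 difference of 0.04 over the members and a largest of 0.20. The gap between mutant replicate 1 and the mean of the other mutant libraries ran from -0.98 to 0.22, with a median of -0.37 over the members and -0.05 over all tested genes. It was between -0.37 and 0.22 in the 16 members that fell, and between -0.98 and -0.32 in the 21 not called. The test divides by the spread within genotypes, so calls and this gap come from the same values. In 6 of 37 members, Cbr-mrpl-14, Cbr-mrpl-17, Cbr-mrpl-35, Cbr-mrps-11, Cbr-mrps-22 and Cbr-mrps-28, mutant replicate 1 alone was below the wild-type range. That share was close to the background, 17.1% of all tested genes.

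Summed over the members, the level was 1619, 2103 and 2112 CPM in mutant replicates 1, 2 and 3, against 2586, 2852 and 2663 CPM in wild-type replicates 1, 2 and 3. On this TMM scale the groups did not overlap, and mutant replicate 1 was the lowest. That separation depends on the scaling, and the sums were not taken with library totals. With library totals the members' median log2 ratios to the wild-type mean were 0.09 and 0.03 in mutant replicates 2 and 3. The ratio of the summed large subunit to the summed small subunit genes was 0.767, 0.833 and 0.834 in the mutant, against 0.829, 0.847 and 0.810 in wild type. Mutant replicates 2 and 3 were inside the wild-type range of this ratio and mutant replicate 1 below it.

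Leaving out mutant replicate 1 gave 24 members lower and 4 higher, and all 16 calls remained. The background without it was 28.6% lower and 31.1% higher. That fit left mutant replicates 2 and 3 as the only mutant libraries, with a median absolute log2 difference of 0.08 over all tested genes. Its p-values thus rest on a small spread within the mutant. The 4 called higher were Cbr-mrpl-10, Cbr-mrpl-21, Cbr-mrpl-35 and Cbr-mrps-28, with log2 fold changes of 0.64, 0.68, 0.23 and 0.46 and edgeR adjusted p-values of 0.00119, 0.013, 0.0496 and 0.0105. The members' median log2 fold change was then -0.34, against 0.04 over all tested genes. Leaving out any other single library gave 12 or 13 members lower, against 4.27% to 4.88% of all tested genes, with Cbr-mrpl-15, Cbr-mrps-5 and Cbr-mrps-18C lost each time and Cbr-mrps-30 lost in all but the run without wild-type replicate 2. Cbr-mrpl-2, Cbr-mrpl-4, Cbr-mrpl-9, Cbr-mrpl-37, Cbr-mrpl-40, Cbr-mrps-7 and Cbr-mrps-27 were called lower under all 14 refits tried.

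Germline markers also set mutant replicate 1 apart. These and the cuticle genes came from the same lists as the members, and so had changed in another mutant. They were chosen with earlier results of these data known, so their counts are a description only. All 15 germline genes of the list were above the wild-type range in mutant replicate 1, against 41.2% of all tested genes. In mutant replicates 2 and 3, 12 of 15 were below it, against 37.7% and 37.6%. Their summed level was 1180, 495 and 510 CPM in the mutant, against 479 to 486 CPM in wild type, and none was at 0 in any library. Of the 15, 3 rose, the meiotic genes Cbr-syp-2 and Cbr-him-3 and the translational repressor gene Cbr-gld-1, against 11.7% of all tested genes. Of 28 tested cuticle collagen genes, 22 were above the wild-type range in mutant replicate 1, against the same 41.2%. Their summed level was 19696, 8000 and 8389 CPM in the mutant, against 12118 to 14562 CPM in wild type. Among all 39 collagen genes listed, 8 had 0 counts in some library. The part of germline or cuticle differences between libraries in the levels of mitochondrial ribosomal genes was not tested.

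Cbr-mrpl-4 and Cbr-mrps-2 are neighbours, with 0 genes between them in the RefSeq table, and both fell. Cbr-mrps-2, whose bacterial counterpart sits between the head and body of the small subunit, was at 36.6, 42.9 and 43.5 CPM in the mutant, against 63.2, 78.5 and 69.7 CPM in wild type. Its log2 fold change was -0.78 (SE 0.14, edgeR adjusted p = 0.0105), close to the -0.89 of Cbr-mrpl-4. Mutant replicate 1 was the lowest library for both genes. Cbr-mrps-24 and Cbr-mrpl-1, which is no member, have 1 gene between them. Cbr-mrps-24 was at 18.9, 23.6 and 23.3 CPM in the mutant, against 34.6, 40.7 and 40.1 CPM in wild type (log2 fold change -0.81, SE 0.14, edgeR adjusted p = 0.0101).

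The study's tables also place 19 of the members in a list that names Cbr-ivph-3(sy5216), a placement made on these same libraries and so no independent support. Of those 19, 16 fell, against 9.8% of all tested genes, with a median log2 fold change of -0.76. Of the other 18, 0 fell, and 14 had a negative fold change, against 45.7% of all tested genes. Their median was -0.27. By library, the 18 had medians of -0.69, -0.11 and -0.10 in mutant replicates 1, 2 and 3, and the 19 had -0.85, -0.73 and -0.71. At least 15 further genes with such symbols are listed for Cbr-ivph-3(sy5216) alone in the shortened copies of those tables used here, so they were chosen on these libraries. Of these 15, 11 fell and 0 rose, against 9.8% and 11.7% of all tested genes, with a median log2 fold change of -0.62. Another 16 genes with such a symbol in the RefSeq table were in neither set and were not analysed here.

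Other genes of mitochondrial protein supply were taken from the same lists as the members, and so had changed in another mutant. Of 6 genes for other steps of mitochondrial translation, 2 fell and 0 rose, against 9.8% and 11.7% of all tested genes. Their median log2 fold change was -0.49. Cbr-tufm-1, for the elongation factor that brings aminoacyl-tRNA to the mitochondrial ribosome, was at 235, 253 and 234 CPM in the mutant, against 484, 469.6 and 469 CPM in wild type (log2 fold change -0.98, SE 0.11, edgeR adjusted p = 0.00221). Cbr-eral-1, whose human counterpart helps to assemble the small subunit, was at 13.9, 17.8 and 18.3 CPM in the mutant, against 25.4, 26.8 and 26.3 CPM in wild type (log2 fold change -0.65, SE 0.14, edgeR adjusted p = 0.0209).

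Genes for import, processing and folding of mitochondrial proteins fell in 11 of 15 cases and rose in 0. The shares of all tested genes were 9.8% lower and 11.7% higher. The median log2 fold change of the list was -0.89. Cbr-tomm-40, for the outer membrane import channel, was at 128, 117 and 123 CPM in the mutant, against 299.8, 333 and 298 CPM in wild type (log2 fold change -1.34, SE 0.12, edgeR adjusted p = 0.000969). Cbr-tomm-70, for an import receptor, had a log2 fold change of -1.02 (SE 0.11). Mutant replicate 1 was the lowest mutant library in 9 of the 15 genes, against 49.6% of all tested genes. It was the highest in 6, Cbr-tomm-40 and Cbr-tomm-70 among them, against 6313 of all 14241 tested genes. The median gap to the other mutant libraries was -0.23 on the log2 scale.

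Of 11 genes for the respiratory chain and its assembly, 6 fell and 1 rose, against 9.8% and 11.7% of all tested genes. Their median was -0.59. Mutant replicate 1 was the lowest mutant library in 9 of the 11 and the highest in 2. Cbr-asb-2, for an ATP synthase subunit, was at 309, 336 and 339 CPM in the mutant, against 1003, 1194 and 1028 CPM in wild type (log2 fold change -1.71, SE 0.13, edgeR adjusted p = 0.000593). Cbr-nduf-2.2, for a complex I subunit, was the gene that rose, with 163, 218 and 213 CPM in the mutant, against 51.8, 64.4 and 55.4 CPM in wild type (log2 fold change 1.79, SE 0.17, edgeR adjusted p = 0.0013).

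For the cytosolic ribosome and its nucleolar assembly, 4 of 11 listed genes fell and 0 rose, with a median of -0.41. The shares of all tested genes were again 9.8% lower and 11.7% higher. Mutant replicate 1 was the lowest mutant library in 8 of the 11 and the highest in 3. Cbr-nol-56, for a core protein of the particles that methylate ribosomal RNA, had a log2 fold change of -0.79 (SE 0.11), and Cbr-nsun-1, for an RNA methyltransferase, one of -0.74 (SE 0.11). None of these lists was tested against the mitochondrial ribosomal members.

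**Figure D4:**
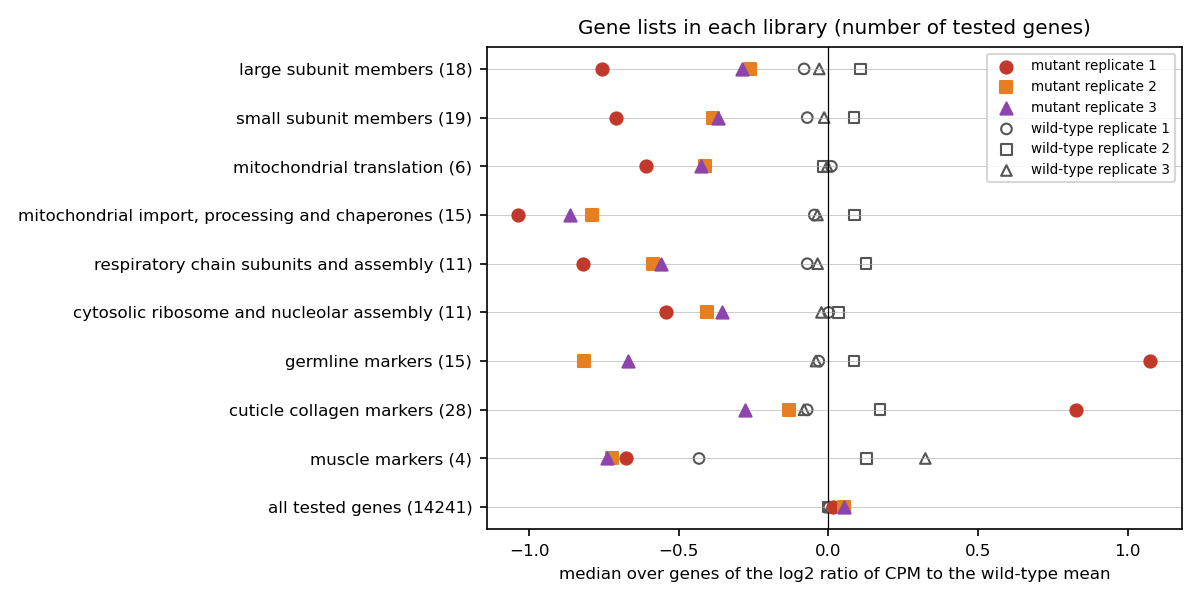
Median over genes of the log2 ratio of CPM to the wild-type mean (x axis) for each gene list and library, filled points for mutant and open points for wild-type replicates, with the number of tested genes in parentheses. Mutant replicate 1 is lowest for both ribosomal subunits, at -0.76 and -0.71. It is also lowest for mitochondrial translation (-0.61), import, processing and chaperones (-1.04), respiratory chain (-0.82) and cytosolic ribosome (-0.54). It is highest for germline markers, at 1.08, and cuticle collagens, at 0.83.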

How the data were processed

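The authors aligned paired-end RNA-seq reads with RNA STAR to the WS279 genome and used featureCounts, reverse-stranded, for read pairs per gene, both on Galaxy. Versions are not given in the sources used here. The deposited table holds unnormalized counts of 23169 genes in 6 libraries, 22817581 to 30865944 counts each; a gene with few counts, such as Cbr-mrpl-21, is measured less precisely. Members were matched by identifier through the study's overlap tables and to RefSeq (assembly CB4) by locus name, with 37 of 37 found and 34 under the same symbol. The members and gene lists were chosen with earlier results of these data known. Sequences of the members were not used here.

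Counts were tested with edgeR 4.0.16 in R 4.3.3 (filterByExpr, TMM, glmQLFit robust, glmQLFTest, genotype only), with Benjamini-Hochberg adjustment over 14241 genes at 0.05. The standard error is the fold change over the square root of F. Library ratios used log2 CPM with a prior count of 2. Alternatives were DESeq2 1.42.0, its size factors, limma-voom (limma 3.58.1), upper-quartile scaling, library totals, other filters, an adjusted p under 0.01, a replicate block and each library left out. The procedure was tested on simulated data. Genes given in full were the 4 smallest and 2 largest p per subunit, neighbours, the extremes of mutant replicate 1, and up to 2 genes per other list, unless stated otherwise.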

Additional observations from a re-analysis of the deposited data

How the results depend on the processing

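The number of members lower in the mutant was 12 to 24 over the runs that left out 1 library, and 0 to 4 were higher, the highest counts in both cases without mutant replicate 1. Large subunit members lower numbered 6 to 11 and small subunit members 6 to 13. With library totals, 7 members were lower, 2 of them of the small subunit, and 1 was higher, and the medians of mutant replicates 2 and 3 became 0.089 and 0.034. An adjusted p under 0.01 left 10 members lower, 4 of them of the small subunit. DESeq2 called 19 lower, limma-voom 16 and upper-quartile scaling 13, the last against 7.53% of all tested genes lower and 12.9% higher, and the count without Cbr-mrpl-21, an alternative chosen after seeing the data, was 16. In all refits the members' median was below that of all tested genes, by 0.38 without mutant replicate 1 up to 0.63 with DESeq2. The fold changes nearest 0 changed sign. That of Cbr-mrpl-35 became 0.0057 with at least 10 counts in every library, 0.32 with library totals, 0.084 with upper-quartile scaling and -0.17 to 0.23 over leaving out 1 library. That of Cbr-mrpl-17 became -0.040 with DESeq2, -0.025 with its size factors, -0.033 with limma-voom, -0.039 with no filter, -0.031 with a replicate block and -0.14 to 0.22 over leaving out 1 library. That of Cbr-mrps-11 became 0.24 with library totals, 0.0069 with upper-quartile scaling and -0.20 to 0.056 over leaving out 1 library. The cause was not tested.

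The replicate numbers were not taken to pair libraries. Deviations of same-numbered libraries from their genotype means had correlations of 0.152, 0.174 and -0.067 across genes. Those of differently numbered libraries ran from -0.204 to 0.208. Deviations from a shared mean constrain each other, so these values cannot decide whether libraries were paired. With the replicate number as a block, 14 members were lower and 0 higher, against 7.72% of all tested genes lower and 8.68% higher, with Cbr-mrpl-15 and Cbr-mrps-5 lost.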

Other observations

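The mitochondrial chaperone genes Cbr-hsp-6 and Cbr-hsp-60, whose counterparts in Caenorhabditis elegans are the usual reporters of the mitochondrial unfolded protein response, were both lower in the mutant. Cbr-hsp-6 was at 557, 330.0 and 327 CPM in mutant replicates 1, 2 and 3, against 1239, 1169.7 and 1239 CPM in wild-type replicates 1, 2 and 3 (log2 fold change -1.59, standard error, SE, 0.23, edgeR adjusted p = 0.00544). Cbr-hsp-60 was at 783, 525 and 522 CPM in the mutant, against 1704, 1701 and 1609.8 CPM in wild type (log2 fold change -1.45, SE 0.19, edgeR adjusted p = 0.00375). For both genes mutant replicate 1 was the highest mutant library, as in 6 of the 15 genes of the import, processing and chaperone list. It was the lowest in 9 of the 15. Over all 14241 tested genes it was the highest in 6313 and the lowest in 49.6%. Both genes were named after their values were seen.

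Of 4 muscle genes in the same lists, 1 fell, Cbr-tnt-4, against 9.8% of all tested genes. The medians of mutant replicates 1, 2 and 3 were -0.68, -0.72 and -0.74. Mutant replicate 1 was the highest mutant library in 3 of the 4, with a median gap to the other mutant libraries of 0.37 on the log2 scale. Their summed level was 488, 332 and 345 CPM in the mutant, against 566, 833 and 941 CPM in wild type.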
